A study of Mus musculus with 4 samples.

Results

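Genes of the major histocompatibility complex (MHC) and its partners were followed in prefrontal cortex of mice living under repeated social threat and of control mice. The members were 10 genes: the class I heavy chains H2-K1, H2-D1, H2-T23 and H2-M3 with their shared light chain B2m, and the class II genes H2-Aa, H2-Ab1, H2-Eb1 and H2-DMa with Cd74. Every probe set whose platform annotation gave exactly 1 gene symbol, that symbol being a member, was taken. This gave 27 of 45037 probe sets, 16 for class I and 11 for class II, and covered 9 of the 10 genes. Both probe sets of H2-T23 also carried the symbol of the pseudogene H2-T-ps, so H2-T23 has no value below. Of the heavy chains, H2-K1 had 4 probe sets, H2-D1 had 9 and H2-M3 had 1, and the light chain B2m had 2. In class II, H2-Aa had 4, H2-Ab1 had 3, H2-DMa had 2, and Cd74 and H2-Eb1 had 1 each.

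Total RNA was measured on 4 Affymetrix MOE430 2.0 arrays, 1 per pool, each pool made of RNA from 5 mice. There were 2 pools from the environment labelled HighThreat (threat) and 2 from the one labelled LowThreat (control). The sources used here do not give the strain, age or sex of the mice. Since each array averages several mice, p-values measure the spread between pools and not that between animals, and nothing in the labels tells cages or days apart.

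MHC class I molecules sit on almost all nucleated cells and show peptides from the cell's own proteins to CD8 T cells, and in the brain they have also been described on neurons, where they take part in synapse refinement. MHC class II molecules show peptides from engulfed material to CD4 T cells and are made mainly by professional antigen-presenting cells. In the healthy brain these are chiefly macrophages of the meninges, the perivascular space and the choroid plexus together with a few dendritic cells, while resting microglia make little. Interferon-gamma raises both classes, class II through the coactivator Ciita and class I through its relative Nlrc5, which act on a shared promoter module made of the S, X and Y boxes.

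The promoters are shown because both classes carry this module. Its part in how class II values differed between pools, described below, was not tested. Sequences were the 250 bases before the transcription start from RefSeq (GRCm38.p6), in which 8 of the 10 members had an entry, all but H2-Ab1 and Cd74. Each is written 5′ to 3′, and for H2-K1, with 2 listed starts, the upstream one is given. Capitals mark the letters TGANG (the core of the X2 part of the X box) followed by ATTGG (the Y box). They also mark TTTCNNTTC (a form of the letters of interferon response elements) and GGGNNTTCC (letters of NF-kB sites).
H2-K1 (chr17:34000348-34000597, minus strand): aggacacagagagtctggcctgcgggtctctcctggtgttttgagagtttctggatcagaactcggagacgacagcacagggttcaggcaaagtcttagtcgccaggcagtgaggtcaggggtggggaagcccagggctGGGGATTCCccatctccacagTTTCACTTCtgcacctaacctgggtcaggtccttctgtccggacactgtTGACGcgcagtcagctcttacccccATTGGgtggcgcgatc
H2-D1 (chr17:35262844-35263093, plus strand): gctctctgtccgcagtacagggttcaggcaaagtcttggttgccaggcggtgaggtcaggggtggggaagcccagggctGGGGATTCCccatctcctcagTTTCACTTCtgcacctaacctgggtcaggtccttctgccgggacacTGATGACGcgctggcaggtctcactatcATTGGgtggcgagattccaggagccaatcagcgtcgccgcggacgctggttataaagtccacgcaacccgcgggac
B2m (chr2:122147437-122147686, plus strand): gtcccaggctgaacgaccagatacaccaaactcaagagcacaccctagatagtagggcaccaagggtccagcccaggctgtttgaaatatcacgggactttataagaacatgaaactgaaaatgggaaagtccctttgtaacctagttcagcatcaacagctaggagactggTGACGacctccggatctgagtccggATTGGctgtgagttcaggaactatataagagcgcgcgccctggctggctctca
H2-Aa (chr17:34287824-34288073, minus strand): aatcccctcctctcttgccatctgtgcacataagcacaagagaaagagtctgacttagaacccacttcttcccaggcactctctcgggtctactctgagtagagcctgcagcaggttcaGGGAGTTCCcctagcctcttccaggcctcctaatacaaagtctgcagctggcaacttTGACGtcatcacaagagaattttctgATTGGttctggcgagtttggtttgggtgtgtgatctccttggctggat
H2-Eb1 (chr17:34305617-34305866, plus strand): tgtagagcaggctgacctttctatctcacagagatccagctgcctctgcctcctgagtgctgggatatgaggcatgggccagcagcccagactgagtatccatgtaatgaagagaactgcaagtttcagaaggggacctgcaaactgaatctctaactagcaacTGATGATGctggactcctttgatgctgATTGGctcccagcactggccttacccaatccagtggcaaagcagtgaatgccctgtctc
Between TGANG and ATTGG lay 20 bases in H2-K1, H2-D1, B2m and H2-M3, 21 in H2-Aa and 19 in H2-Eb1. In H2-D1, H2-M3 and H2-Eb1, TGANG occurred 2 times in overlapping letters, and the gap is counted from the downstream copy. The pair with a gap of 15 to 25 bases, a range chosen after these sequences were seen, was present in 6 of the 8 members with an entry and, searched on both strands, in 2.46% of 32851 promoters of the same length. The letters ATTGG alone occurred in 33.8% of them. TTTCNNTTC was found in H2-K1, H2-D1 and H2-M3 and in 6.31% of all promoters. GGGNNTTCC was found in H2-K1, H2-D1 and H2-Aa and in 4.98% of all promoters, and neither overlapped the pair in these members. The B2m window holds gaaactgaaa, a related form of the interferon response letters that TTTCNNTTC does not match, so it was left unmarked. Other forms were not searched. No pair was found in the windows of H2-T23 and H2-DMa. These matches describe letters and are no measure of binding.

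In limma's test with Benjamini-Hochberg adjustment no probe set of 45037 passed an adjusted p of 0.05, while 4774 (10.6%) had an unadjusted p under 0.05. None of the 27 MHC probe sets passed either, the smallest adjusted p among them being 0.427, and 4 had an unadjusted p under 0.05. Arrays correlated between 0.9942 and 0.9961 across probe sets. As a guide to background, 27 control probe sets for Bacillus transcripts, which match no mouse RNA, reached at most 4.25. Of the MHC probe sets, 21 lay above 4.25 in all 4 pools, 12 of class I and 9 of class II. In bulk tissue, fewer cells of a type and less RNA per cell cannot be told apart.

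Class I probe sets lay slightly lower in threat, most of all in threat pool 1. Of 16, 12 had a difference below 0. The median log2 difference was -0.22, against 0.02 for all probe sets, of which 46% were below 0. In 6 of the 16 both threat pools were below both control pools (pools called separate here), against 19.4% of all probe sets, and in 1 both were above, against 23.9%. Of the 16, 11 end in _x_at, a kind of probe set described below, and 5 of these 11 were lower with separate pools. Across the array 36% of that kind were, and 63.2% of that kind lay below 0. Of the 5 class I probe sets of other kinds, 1 was lower with separate pools. None reached a 1.5-fold difference with separate pools, a size that 0.83% of all probe sets reached. Threat pool 1 was the lowest of the 4 pools in 11 of the 16, against 21.9% of all probe sets. Without threat pool 1 the median was -0.09.

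B2m encodes beta-2-microglobulin, the light chain that class I heavy chains need to reach the cell surface. Both its probe sets end in _a_at, a suffix for probes that all match transcripts of the same gene. By 1449289_a_at it measured, on the log2 scale, 10.98 and 11.31 in control (pools 1 and 2, an order kept below) and 10.53 and 10.99 in threat. By 1452428_a_at it measured 11.25 and 11.35 in control and 10.89 and 11.27 in threat. Both probe sets put threat pool 1 lowest and control pool 2 highest, and in both the groups overlapped, with threat pool 2 above control pool 1. The log2 differences were -0.38 ± 0.19 (SE, n = 2 pools each, limma's adjusted p = 0.516) and -0.22 ± 0.15 (adjusted p = 0.602). They came to -0.15 and -0.03 without threat pool 1.

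H2-K1, a classical heavy chain, was read by 4 probe sets, all ending in _x_at, a suffix for probe sets in which some probes also match other sequences. The brightest, 1425336_x_at, measured 9.16 and 9.39 in control and 8.78 and 9.33 in threat, and 1451931_x_at measured 8.89 and 9.14 in control and 8.25 and 8.76 in threat. The pools overlapped in the first and were separate in the second. Their log2 differences were -0.22 ± 0.20 (adjusted p = 0.703) and -0.51 ± 0.19 (unadjusted p = 0.0392, adjusted p = 0.46, limma), and without threat pool 1 they came to 0.06 and -0.26. The other two were 1427746_x_at, at 6.78 and 6.85 in control and 6.68 and 7.08 in threat, and 1450534_x_at, which lay between 4.33 and 4.49 in all pools. Thus the 4 readings of H2-K1 ran from -0.51 to 0.07, and the brightest was not the one with the largest difference.

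H2-D1, the other classical heavy chain measured, had 9 probe sets whose mean levels ran from 3.93 to 9.35, and class I sequences differ between mouse strains. The brightest were 1425545_x_at, with 9.45 and 9.63 in control and 8.91 and 9.39 in threat, and 1451784_x_at, with 9.40 and 9.53 in control and 8.72 and 9.43 in threat. Threat pool 1 was lowest in both, the pools were separate in the first, and threat pool 2 passed control pool 1 in the second. Both differed by -0.39 (SE 0.18 and 0.23, adjusted p = 0.497 and 0.563 in limma). Without threat pool 1 the differences were -0.15 and -0.04.

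The fainter probe sets of H2-D1 did not all point the same way. The dim 1451683_x_at was at 5.40 and 5.57 in control and 4.81 and 5.16 in threat, with separate pools and a difference of -0.50 ± 0.15, for which limma gave an unadjusted p of 0.0161 and an adjusted p of 0.436. Of the plain _at probe sets, 1426324_at was at 4.75 and 5.10 in control and 5.07 and 5.25 in threat, a difference of 0.23 ± 0.15 (adjusted p = 0.579). The other, 1451934_at, was near background at 4.25 and 4.21 in control and 4.45 and 4.33 in threat, with threat above control. The remaining 4, all _x_at, had differences between -0.24 and 0.00. Of these, 1425614_x_at and 1450170_x_at did not exceed 4.25, the Bacillus maximum, in any pool, so their values set no level.

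H2-M3, a nonclassical heavy chain that presents formylated peptides, was read by a single plain probe set, 1421358_at. It measured 6.83 and 6.73 in control and 6.54 and 6.57 in threat, so that the pools were separate and close to each other within each group. The log2 difference was -0.22 ± 0.09 (limma, unadjusted p = 0.0557, adjusted p = 0.476), and it lay between -0.18 and -0.27 when each pool was left out in turn. Without threat pool 1 the difference of H2-M3 was little changed, at -0.21. That of the brighter H2-K1 probe set 1451931_x_at shrank from -0.51 but stayed at -0.26.

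**Figure D1:**
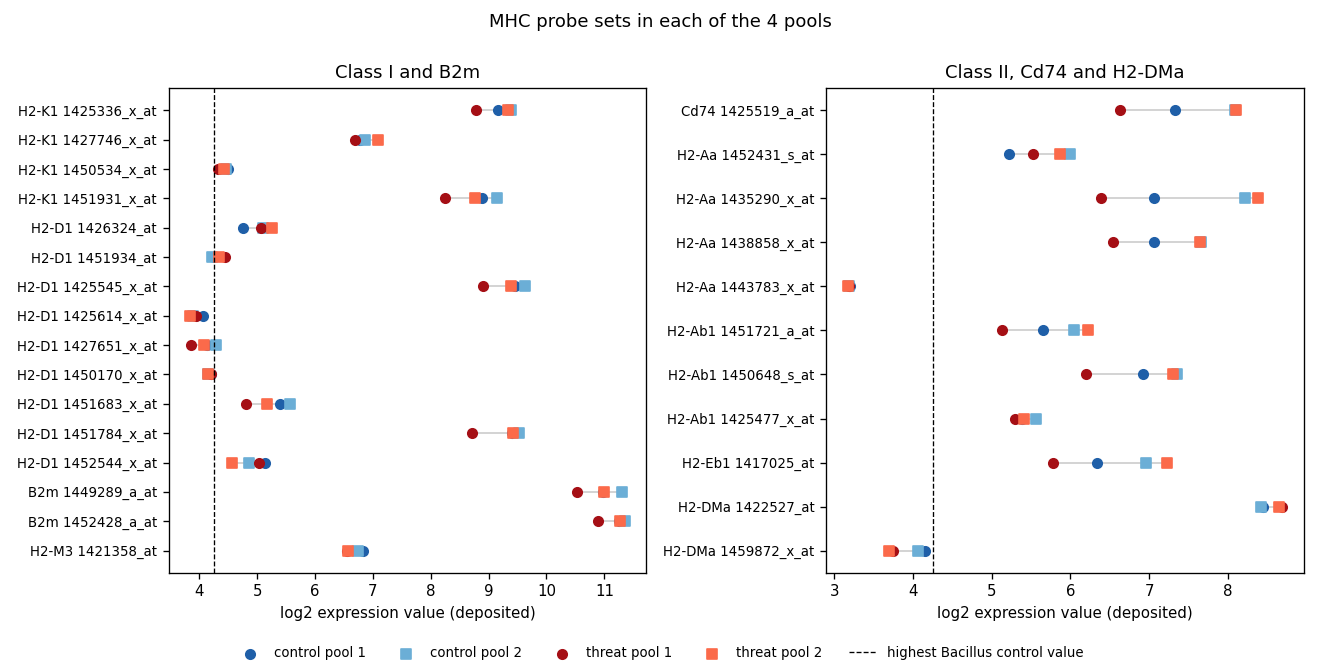
Deposited log2 values (horizontal axis) of the 16 class I and 11 class II probe sets, 1 row each, with a point for each of the 4 pools and the highest Bacillus control value (4.25) as a dashed line. In class II, threat pool 1 sits at the left and both second pools at the right for most probe sets of H2-Aa, H2-Ab1, H2-Eb1 and Cd74.

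Across the array, probe sets ending in _x_at lay lower in threat more often than plain ones. In class I the median was -0.22 for those ending in _x_at and 0.16 for the 3 plain _at probe sets, of which 1 lay lower. Of the 11 class I probe sets ending in _x_at, 9 lay lower in threat, 5 of them with separate pools, and their median was -0.22. The 5 class I probe sets ending in _at or _a_at had the same median of -0.22, with 3 of 5 lower. In class II, 5 of 5 ending in _x_at lay lower, 2 of them not above the Bacillus maximum in any pool and 1 with separate pools, with a median of -0.25. The other class II probe sets were lower in 1 of 2 ending in _at, 1 of 2 ending in _s_at and 2 of 2 ending in _a_at. Of all 2441 _x_at probe sets of the array, 63.2% lay lower and in 36% both threat pools were below both control pools, with a median of -0.05. Among 36082 plain _at probe sets these shares were 45.5% and 18.2%. The 3 plain _at class I probe sets had differences of -0.22 (H2-M3), 0.16 and 0.23 (both H2-D1), and the 2 of B2m, ending in _a_at, both lay lower. A difference of H2-K1 was thus read only by a kind of probe set of which the majority lay lower in threat across the array.

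**Figure D2:**
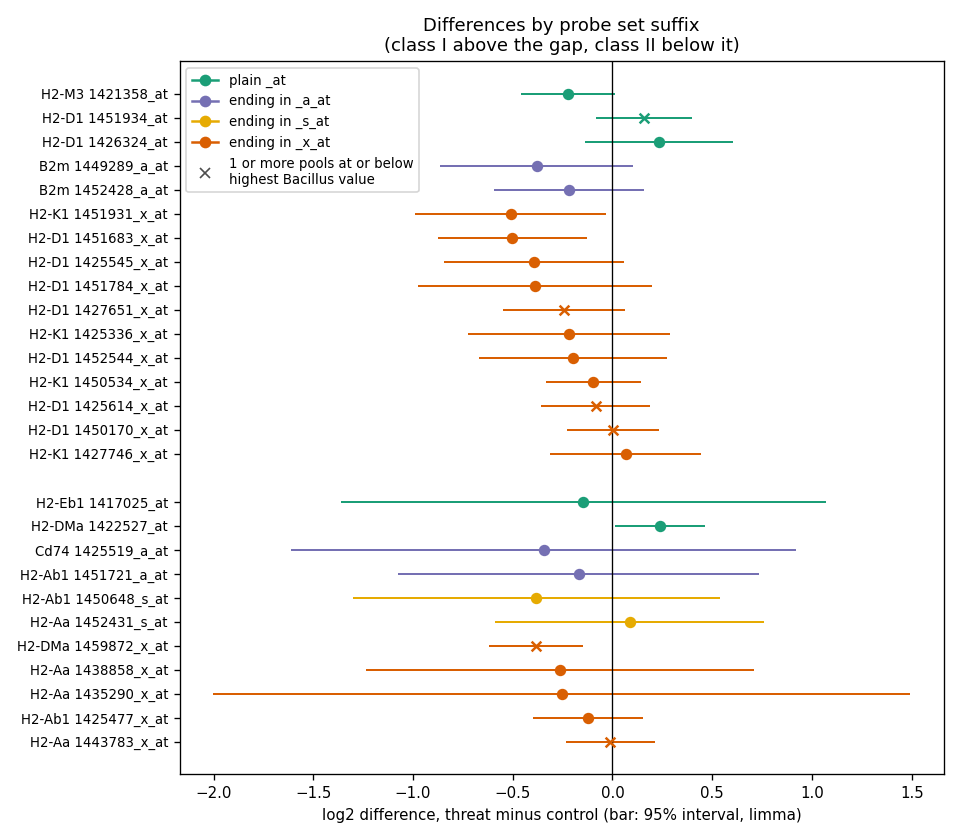
Log2 difference of threat minus control (points) with its 95% interval from limma (bars) for each MHC probe set, grouped by suffix, and crosses where 1 or more pools did not exceed the Bacillus maximum. Intervals of Cd74, H2-Eb1 and most probe sets of H2-Aa and H2-Ab1 are wider than those of class I.

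Most class II probe sets differed more between pools of the same group than between threat and control. Outside H2-DMa, 8 class II probe sets lay above the Bacillus controls in every pool, and in all 8 control pool 2 was above control pool 1 and threat pool 2 above threat pool 1, an arrangement seen in 25.2% of all probe sets. It was also seen in 9 of the 12 class I probe sets above those controls. In 7 of these 8 the gap between the threat pools was larger than the difference of the group means, as in 8 of those 12 class I probe sets and 51.3% of all probe sets. The pooled SD between like pools of 7 of the 8 was among the highest 5% of all probe sets, at or above 0.279, and its median over the 8 was 0.61, against 0.104 over all probe sets. In class I above the Bacillus controls, 4 of 12 were among that 5%, and the median SD was 0.231. Over every member probe set, H2-DMa and the faint ones included, it was 7 of 11 in class II with a median SD of 0.582, and 4 of 16 in class I with 0.197. Pool numbers name the pools, and the labels do not say that pools of the same number share anything.

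Cd74, the invariant chain that guides class II molecules through the cell, measured 7.33 and 8.09 in control and 6.63 and 8.10 in threat. The second pools of both groups were alike, and threat pool 1 was 2.78-fold below threat pool 2. Against this the log2 difference of the means was -0.34 ± 0.51 (limma, adjusted p = 0.818, 95% interval -1.61 to 0.92). It turned to 0.39 without threat pool 1 and 0.03 without control pool 2.

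H2-Aa encodes the alpha chain of the class II molecule I-A. Its brightest probe set, 1435290_x_at, measured 7.07 and 8.22 in control and 6.39 and 8.38 in threat, a gap of 3.98-fold between the threat pools and 2.22-fold between the control pools. Only 0.0511% of all probe sets had a larger SD between like pools. By 1438858_x_at the values were 7.06 and 7.65 in control and 6.54 and 7.64 in threat, the same order of low and high pools but for the top pair. By 1452431_s_at (a suffix for probes shared by transcripts of more than one gene) they were 5.22 and 5.99 in control and 5.53 and 5.86 in threat, where control pool 1 and not threat pool 1 was lowest. The log2 differences were -0.25 ± 0.70, -0.26 ± 0.39 and 0.09 ± 0.27 (adjusted p = 0.912, 0.818 and 0.923 in limma). The fourth, 1443783_x_at, lay between 3.17 and 3.20, below the Bacillus maximum in all pools.

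H2-Ab1, the beta chain of I-A, gave 6.92 and 7.35 in control and 6.20 and 7.31 in threat by 1450648_s_at. By 1451721_a_at it gave 5.65 and 6.05 in control and 5.13 and 6.22 in threat. Threat pool 1 was lowest in both, by 2.15-fold and 2.13-fold under threat pool 2, and the groups overlapped. The differences were -0.38 ± 0.37 and -0.17 ± 0.36 (limma, adjusted p = 0.712 and 0.881), and without threat pool 1 they turned to 0.17 and 0.38. The third, 1425477_x_at, ran only from 5.29 to 5.57, with a difference of -0.12 ± 0.11.

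H2-Eb1, the beta chain of the second class II molecule, I-E, had 1 plain probe set, 1417025_at. It measured 6.33 and 6.96 in control and 5.78 and 7.23 in threat, so threat pools were both the lowest and the highest. The difference was -0.15 ± 0.48 (limma, adjusted p = 0.931, 95% interval -1.35 to 1.06), and it turned to 0.58 without threat pool 1 and to 0.17 without control pool 2. This plain probe set had the same order of pools as 1435290_x_at of H2-Aa and 1451721_a_at of H2-Ab1, so the order was not limited to 1 suffix.

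H2-DMa, a chain of the H2-DM exchange factor that helps load peptides onto class II in the endosome, stood apart from the surface chains. Its plain probe set 1422527_at measured 8.45 and 8.42 in control and 8.69 and 8.65 in threat, with separate pools, threat higher, and gaps of only 1.02-fold between like pools. The difference was 0.24 ± 0.09 (limma, unadjusted p = 0.039, adjusted p = 0.46), and it lay between 0.22 and 0.26 when each pool was left out. The other, 1459872_x_at, went the opposite way at 4.15 and 4.06 in control and 3.74 and 3.70 in threat, but all 4 values lay below the Bacillus maximum, so its difference (-0.38 ± 0.09, limma, unadjusted p = 0.00716, adjusted p = 0.427) has no level behind it.

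Over all 11 class II probe sets, 9 lay below 0, with a median of -0.17, and the pools of 2 were separate, 1 lower (as in 19.4% of all probe sets) and 1 higher in threat (as in 23.9%). Those 2 were the probe sets of H2-DMa. The median was 0.25 without threat pool 1, 0.03 without control pool 2, -0.37 without control pool 1 and -0.72 without threat pool 2, so its sign depended on which pool was left out. Class I medians under the same omissions were -0.09, -0.17, -0.22 and -0.30.

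**Figure D3:**
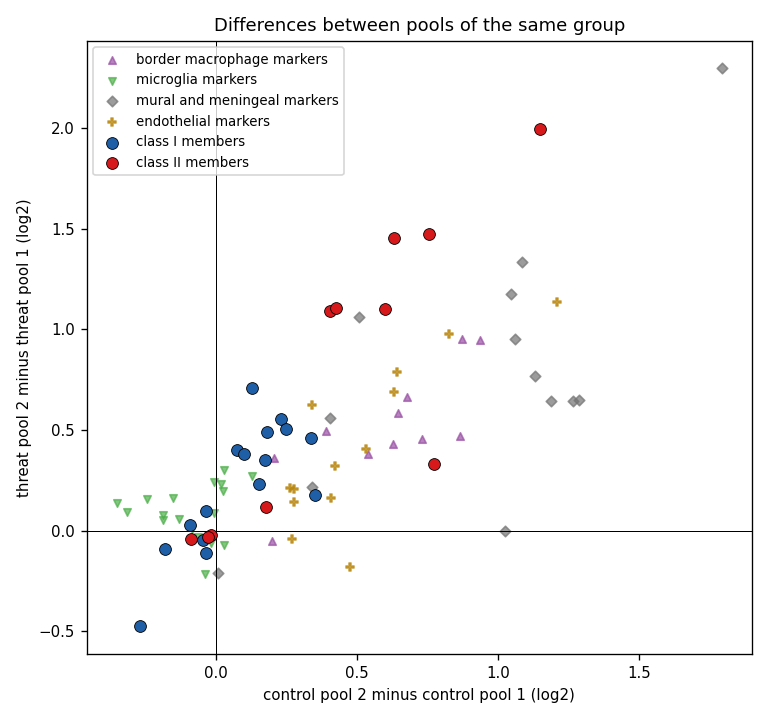
Each point is a probe set, with control pool 2 minus control pool 1 on the horizontal and threat pool 2 minus threat pool 1 on the vertical axis, both in log2. Class II members reach gaps of 1.15 and 1.99, class I members stay within 0.35 and 0.71, and markers of border macrophages, endothelium and mural and meningeal cells lie mostly at the upper right with class II, while microglia markers lie near the origin.

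Genes that load class I had mean levels of 8.03 and 8.05 in control and 7.90 and 8.03 in threat, with threat pool 1 lowest. Of this list (peptide transporters, immunoproteasome, chaperones), 13 of 14 genes were measured and 9 lay lower, with a median of -0.10. Pools were separate in 6, with 4 lower and 2 higher in threat, against 19.4% and 23.9% of all probe sets, and none passed the test. Psmb8, a catalytic subunit of the immunoproteasome, was at 6.61 and 6.67 in control and 6.09 and 6.51 in threat (-0.34). The chaperone calreticulin, Calr, was at -0.22, tapasin, Tapbp, which holds class I next to the peptide transporter, at -0.15, and calnexin, Canx, at -0.13. Nlrc5 lay below the Bacillus maximum in all pools.

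Genes that process antigen for class II or control it pointed both ways. Of 15 listed, 14 were measured, 9 lay lower and 5 higher, with a median of -0.07. Pools were separate in 9, with 6 lower and 3 higher in threat, against 19.4% and 23.9% of all probe sets. Ifi30, a lysosomal thiol reductase that unfolds antigens, was at 7.15 and 7.02 in control and 6.54 and 6.70 in threat, a difference of -0.46 ± 0.11 (limma, unadjusted p = 0.0059, adjusted p = 0.423). Cathepsin S, Ctss, which trims the invariant chain, was at -0.27. The RFX subunit Rfxank was higher by 0.25, with 6.62 and 6.56 in control against 6.83 and 6.85 in threat (limma, adjusted p = 0.457). Marchf1, a ubiquitin ligase that removes class II from the surface, was at 7.65 and 8.35 in control and 8.29 and 8.55 in threat, a difference of 0.42 with overlapping pools. Ciita, the class II coactivator, measured between 4.15 and 4.43, about the highest Bacillus value, so nothing can be read from it. Mean levels over this list were 8.08 and 8.05 in control and 8.01 and 8.06 in threat.

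Other class I-like genes, interferon-gamma signalling and receptors for MHC had medians of -0.02 (12 of 23 genes measured), -0.03 (15 of 16) and 0.11 (9 of 11). Of genes with separate pools, 3, 2 and 4 were lower and 1, 3 and 3 higher in threat (19.4% and 23.9% over all probe sets), and none passed the test. The class I-like genes with the largest differences among bright probe sets (mean above 5.56, the median of all) were Hfe, the iron regulator (-0.34), H2-T3 (-0.25), Mr1, which presents vitamin metabolites (-0.09), and the neonatal Fc receptor Fcgrt (-0.01). In interferon-gamma signalling they were the GTPase Irgm1 (-0.29), the kinase Jak1 (0.26), the transcription factor Irf1 (-0.25) and Irf2 (0.12). Among receptors they were the co-receptors Cd4 (-0.26) and Cd8a (0.12) and Lag3, which binds class II (0.20), while 6 of the 9 lay at or below the Bacillus maximum throughout. Gbp2, an interferon-induced GTPase singled out after its values were seen, followed the class II order, with 5.24 and 6.11 in control and 4.91 and 6.38 in threat.

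Of the markers of border macrophages, which line vessels and meninges, 10 of 11 were lower in the first than in the second pool of both groups. So were 8 of 11 class II probe sets and 25.2% of all probe sets. Over 11 of 11 markers, all above the Bacillus maximum, the mean log2 level was 5.78 and 6.39 in control and 5.66 and 6.17 in threat. Over the 9 class II probe sets above that maximum it was 6.60 and 7.14 in control and 6.24 and 7.20 in threat. The mannose receptor Mrc1 measured 6.87 and 7.81 in control and 6.70 and 7.65 in threat, F13a1 6.86 and 7.74 against 6.61 and 7.56, Pf4 6.95 and 7.68 against 6.99 and 7.45, and Cd209f 5.89 and 6.09 against 5.89 and 5.83. Between threat and control, 9 of these 11 markers lay lower, 1 with separate pools, with a median of -0.17. Over all probe sets, 46% lay lower and 19.4% did so with separate pools. Their part in the class II values was not tested.

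Of mural and meningeal markers 12 of 13, and of endothelial markers 11 of 13, were lower in the first than in the second pool of both groups, against 25.2% of all probe sets. In each of the lists 11 of 13 lay lower in threat, against 46% of all probe sets. The mural and meningeal list (13 of 13 measured) gave mean levels of 8.25 and 9.18 in control and 7.75 and 8.53 in threat. Its median difference was -0.50. Pools were separate in 6 genes, all lower, namely smooth muscle actin Acta2 (-1.83), Tagln (-1.44), Myh11 (-1.24), Myl9 (-1.01), Pdgfrb (-0.70) and Rgs5 (-0.17). In the other 7 the pools overlapped. These were Lum (-0.62), Igf2 (-0.50), Dcn (-0.41), the collagens Col1a1 (-0.12) and Col1a2 (-0.09), Cspg4 (0.15) and Slc47a1 (0.49). The endothelial list (13 of 14) had 6.72 and 7.23 in control and 6.47 and 6.89 in threat, a median of -0.28, and 6 genes with separate pools, all lower. Of these, Vwf was at -1.08, Pecam1 at -0.63 and Cldn5 at -0.34, while Tek, with overlapping pools, was at -0.33. Over all probe sets, 19.4% were lower in threat with separate pools. All markers of both lists lay above the Bacillus maximum. None passed an adjusted p of 0.05 in limma, where 4 of 13 and 3 of 13 had an unadjusted p under 0.05, against 10.6% of all probe sets. What part vessel and meningeal tissue has in the class I or class II values was not tested.

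Mean levels of markers of other cells that can carry MHC did not show the wide gaps of class II between like pools. Microglia (18 of 19 markers, all above the Bacillus maximum) had mean levels of 8.92 and 8.83 in control and 8.71 and 8.80 in threat. Of these 18 markers 15 lay lower in threat, against 46% of all probe sets. Their median difference was -0.09, and 8 markers had separate pools, all lower. For this and the next lists, the shares with separate pools over all probe sets were 19.4% lower and 23.9% higher. Among microglia markers, the largest differences of bright probe sets were as follows. Sall1 was at -0.42, C1qa at -0.33, C1qb at -0.29 and Tyrobp at -0.20. Dendritic cell markers (8 of 9) had means of 5.22 and 5.25 in control and 5.18 and 5.20 in threat, and 2 were at or below the Bacillus maximum. Of the 8, 5 lay lower, 2 of them with separate pools (Batf3 at -0.29, unadjusted p = 0.0187, adjusted p = 0.436 in limma, and Xcr1 at -0.13), and none was higher with separate pools, with a median of -0.02. The bright markers Flt3 and Zbtb46 were at 0.12 and 0.03. B cell markers (7 of 8) had 5.04 and 4.85 against 5.04 and 4.81, with 5 of 7 lower, a median of -0.08 and 1 with separate pools, which was higher. Ighm was at 0.19 and Cd22 at -0.08. T and NK cell markers (7 of 11) had 4.34 and 4.31 against 4.33 and 4.23, with a median difference of -0.04, 4 of 7 lower, 1 lower with separate pools and 2 higher with separate pools. Cd3d was at -0.20, Cd3g at -0.18 (the one lower with separate pools) and Cd3e at 0.10, and 2 of the 7 lay above the Bacillus maximum in every pool. Batf3, Xcr1, Cd3d and Cd3g were named after their values were seen.

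For the tissue itself, 10 of 10 neuronal markers lay above the Bacillus maximum, with a median difference of -0.02 (Gad1 -0.42, Gad2 -0.28, Slc17a7 0.23 and Stmn2 0.17). Of these 10, 7 lay lower. With separate pools, 4 were lower and 2 higher in threat, against 19.4% and 23.9% of all probe sets. Oligodendrocyte markers had separate pools in 9 of 9 genes, all lower, with a median of -0.99 (Mobp -1.31, Cldn11 -1.30, Mal -1.16 and Ugt8a -1.13). Their mean levels of 10.57 and 10.10 in control and 9.20 and 9.42 in threat had the highest value in control pool 1, unlike class II. Their part in the class I differences was not tested.

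**Figure D4:**
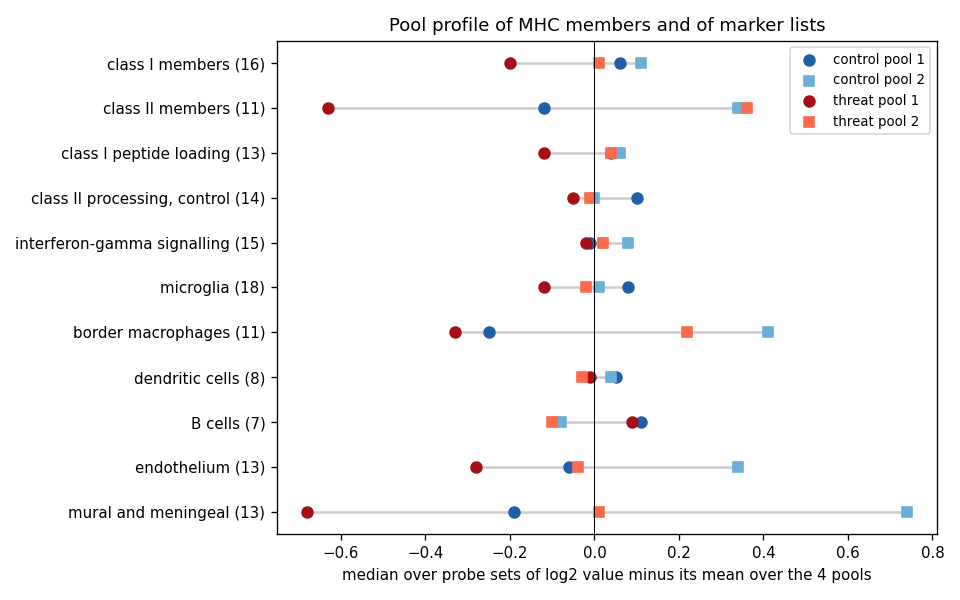
For each list (number of probe sets in brackets), the median over its probe sets of the log2 value minus that probe set's mean over the 4 pools, with 1 point per pool. Class II members run from -0.63 in threat pool 1 to 0.36 in threat pool 2. Border macrophage markers run from -0.33 in threat pool 1 to 0.41 in control pool 2. Class I members run from -0.20 in threat pool 1 to 0.11 in control pool 2.

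The genes whose profile lay nearest to the mean class II profile over the 4 pools were Col1a1, a fibrillar collagen of fibroblasts, Txnip, Abca9, the complement gene C2 and Notch2. Their root mean square distances were 0.0402, 0.0592, 0.0623, 0.0631 and 0.0668 log2 units, and 27 of 20572 bright probe sets with 1 symbol lay within 0.1. The mean class II profile, over 9 probe sets and relative to each probe set's own mean, was -0.20 and 0.35 in control and -0.56 and 0.40 in threat. Col1a1 had -0.19 and 0.31 in control and -0.59 and 0.47 in threat. The mean class I profile was flatter. Both profiles used probe sets whose mean over the pools exceeded 4.25, which are 13 in class I, 1 more than those above it in every pool, and 9 in class II. The class I profile was at 0.05 and 0.16 in control and -0.24 and 0.03 in threat, and 1361 probe sets lay within 0.1 of it. The nearest were Gbp7, an interferon-induced GTPase (0.00574), Phf6 (0.00896), Gna13 (0.0111), Ghr (0.0119) and Ptprz1 (0.0125). With 4 pools such likeness is a description of these arrays.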

How the data were processed

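The authors deposited a table of log2 values with 1 column per pool, and the submitters' processing notes name RMA without a version. The sources used here do not state its settings, chip definition or filters. RMA as usually run brings arrays to a common distribution, which would hide a shift of most transcripts. Control probe sets (64 of 45101) were left out. Symbols came from the platform annotation, and 34945 probe sets had 1.

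Threat was compared with control in R 4.3.3 and limma 3.58.1 (a linear fit with empirical Bayes moderation, 2-sided, Benjamini-Hochberg over 45037 probe sets, 2 residual degrees of freedom, tested on simulated data). The median SE was 0.108, and the number of arrays limits the precision. Members and lists were chosen with earlier results of these data known. Lists used 1 probe set per gene, that with the highest mean, and named up to 4 bright genes with the largest differences. For profiles, the 5 nearest genes were named. Genes outside these rules were named for their role or, where stated, after their values were seen. Alternatives are given in the closing section.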

Additional observations from a re-analysis of the deposited data

How the results depend on the processing

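Under each of the 10 alternatives limma called 0 probe sets at an adjusted p of 0.05, and between 2922 and 6054 had an unadjusted p under 0.05. Class medians kept their sign and moved by less than the spread between pools under cyclic loess, median centring, restriction to bright probe sets, omission of _x_at and _s_at probe sets, an intensity trend and the replicate block. With pool number as a block the medians were -0.22 and -0.17 and 7 of the 27 MHC probe sets had an unadjusted p under 0.05 in limma, in place of 4. Over all 45037 probe sets that number also rose, to 6054 in place of 4774. Deviations of same-numbered pools correlated at 0.33, but the labels give the numbers no meaning. Separate pools with threat lower numbered 3 of 8 for class I and 0 of 8 for class II among bright probe sets, against 3790 of all 22518 bright ones. Without _x_at and _s_at they numbered 1 of 5 and 0 of 4, against 6564 of 36082 _at and 825 of 4426 _a_at probe sets of the array. In the main fit they numbered 6 of 16 and 1 of 11. Leaving out 1 pool in turn, they ranged from 8 to 11 of 16 for class I and from 2 to 8 of 11 for class II. There fewer pools have to be separate, and the share over all probe sets was not computed. The medians then ranged from -0.30 to -0.09 and from -0.72 to 0.25. Single differences that changed sign ranged from -0.50 to 0.06 (H2-K1 1425336_x_at), -0.13 to 0.27 (1427746_x_at), -0.18 to 0.01 (H2-D1 1425614_x_at), -0.43 to 0.04 (1452544_x_at), -1.08 to 0.39 (Cd74), -0.30 to 0.47 (H2-Aa 1452431_s_at), -1.25 to 0.74 (1435290_x_at), -0.82 to 0.29 (1438858_x_at), -0.72 to 0.38 (H2-Ab1 1451721_a_at), -0.93 to 0.17 (1450648_s_at) and -0.87 to 0.58 (H2-Eb1). H2-Aa 1443783_x_at, below background, came to 0.03 with arrays centred on their medians. The cause was not tested. Averaging all probe sets of each gene gave -0.19 for H2-K1, -0.16 for H2-D1, -0.30 for B2m, -0.11 for H2-Aa, -0.22 for H2-Ab1 and, turning the direction of its brightest probe set (0.24) by including one below background, -0.07 for H2-DMa.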
